A study of Homo sapiens and Homo sapiens
Mus musculus and Mus musculus with 200 samples.

Results

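The data are 4 lists of genomic sites bound by TWIST1 in HEK293 cells, a human embryonic kidney line, of 200 samples in the series. Unedited HEK293 cells were transfected with Lipofectamine 2000 and harvested 24 h later, and chromatin was precipitated with the same TWIST1 antibody (Abcam ab50887) in every case. In the pCAG system the cells received pCAG-TWIST1 alone or pCAG-TWIST1 together with pCAG-ALX4-Flag-HA. In the pcDNA3.1 system they received pcDNA3.1_V5-TWIST1 alone or with pcDNA3.1_ALX4-Flag, so the plasmid backbone, the V5 tag on TWIST1 and the tag on ALX4 all differ between the systems and cannot be told apart. All 4 groups carry a TWIST1 plasmid, and each group is 1 library. The question was which TWIST1 sites that appear or disappear with ALX4 do so in both systems.

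TWIST1 is a basic helix-loop-helix (bHLH) transcription factor that pairs with E proteins and binds the short DNA sequence called the E-box. In the embryo it is needed for the mesenchyme that cranial neural crest cells form in the face. ALX4 is a homeodomain factor of the same facial mesenchyme and of the limb, and homeodomains read AT-rich sequence built on TAAT. A composite site that holds an E-box and a homeodomain site at a fixed distance lets factors of both families sit side by side on DNA.

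Peaks of the 4 lists that shared at least 1 bp were merged into 98055 regions. Within a system a region is called gained where a peak was listed with ALX4 only, lost where it was listed without ALX4 only, and kept where both lists had one. These names describe presence in lists of 1 library each, not a tested change. A total of 18435 regions had a peak in both systems, 75043 had one in the pCAG system only and 4577 in the pcDNA3.1 system only. Of all regions, 2850 were gained in both systems, 3329 were lost in both and 3602 were kept in both.

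The sequences below show examples of the spaced motifs counted in these groups, which a minority of regions carry. They come from the strongest members by rank within the lists, read 5′ to 3′ from the hg38 reference, with the matched motifs in capitals. The first 5 are regions gained in both systems that hold the composite motif, an E-box followed after 4 bp by a homeodomain site. The E-box forms searched were CAGCTG and the form CATATG, which read the same on both strands, and CATCTG with its reverse complement, which is CAGATG. The homeodomain site was TAATTA, or else TAATTG with its reverse complement, which is CAATTA. Each region is named by the gene with the nearest transcription start site.
SOX9 (chr17:72376628-72376707, minus strand): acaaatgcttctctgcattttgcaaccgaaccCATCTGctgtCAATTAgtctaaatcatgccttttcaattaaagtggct
MARCHF8 (chr10:45505575-45505654, minus strand): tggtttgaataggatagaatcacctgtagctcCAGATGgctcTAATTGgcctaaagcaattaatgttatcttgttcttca
CAT (chr11:34426874-34426953, plus strand): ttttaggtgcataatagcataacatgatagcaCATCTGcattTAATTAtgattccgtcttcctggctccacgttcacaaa
CAD (chr2:27215177-27215256, plus strand): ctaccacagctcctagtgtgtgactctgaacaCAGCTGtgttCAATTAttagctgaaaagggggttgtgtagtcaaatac
BICD1 (chr12:32181974-32182053, plus strand): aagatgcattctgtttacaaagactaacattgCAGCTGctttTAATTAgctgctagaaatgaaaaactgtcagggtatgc

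For contrast, 3 of the 5 strongest regions lost in both systems held E-boxes 5 bp apart near the summit, shown here with both boxes in capitals and with CAGGTG counted as an E-box.
PGS1 (chr17:78390446-78390526, plus strand): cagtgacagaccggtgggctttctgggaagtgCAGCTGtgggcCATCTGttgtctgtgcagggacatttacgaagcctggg
KRTAP19-8 (chr21:30985049-30985129, plus strand): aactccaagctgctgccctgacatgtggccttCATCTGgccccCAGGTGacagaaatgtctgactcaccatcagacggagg
KLHL29 (chr2:23241264-23241344, plus strand): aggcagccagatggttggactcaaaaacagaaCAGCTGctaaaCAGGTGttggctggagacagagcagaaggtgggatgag

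The strongest regions gained in both systems included a BCAR3 intron, and the strongest kept in both included a region near SUB1. Neither holds the strict composite, but each carries a looser form, any CANNTG followed after 4 bp by 6 bases that contain TAAT or ATTA.
BCAR3 (chr1:93576561-93576640, plus strand): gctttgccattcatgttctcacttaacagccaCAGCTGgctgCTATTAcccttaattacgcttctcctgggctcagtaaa
SUB1 (chr5:32489919-32489998, minus strand): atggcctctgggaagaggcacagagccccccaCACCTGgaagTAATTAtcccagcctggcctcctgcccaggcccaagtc

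The lists moved in opposite directions in length. With pCAG plasmids the list grew from 50196 peaks for TWIST1 alone to 64536 with ALX4, a difference of 14340 peaks. With pcDNA3.1 plasmids it shrank from 15395 to 12505, a difference of -2890. The peaks had a median −log10 q of 4.36 and 4.67 in the pCAG lists and of 4.51 and 5.53 in the pcDNA3.1 lists, each pair given without and then with ALX4. The depth of these libraries is unknown because the lists hold no read counts. Over all regions of the pCAG system 46.9% were gained and 31.7% lost. In the pcDNA3.1 system 34.1% were gained and 46.5% lost. Among the regions peaked in both systems the shares were 21.0% gained and 22.8% lost with pCAG, and 31.3% gained and 45.1% lost with pcDNA3.1.

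The genes on the plasmids were looked at first as a check of the labels, since plasmid DNA maps to the exons of the cDNA it carries. At an ALX4 exon (chr11), the pCAG list with ALX4 had its strongest peak (44309652-44309984, −log10 q 406). The pcDNA3.1 list with ALX4 had a peak there at −log10 q 79.3, and the pcDNA3.1 list without ALX4 had none. The pCAG list without ALX4 also had a peak over the same exon, at −log10 q 33.5. At TWIST1 an exon peak was listed for pcDNA3.1 without ALX4 only (chr7:19116711-19117153, −log10 q 177), although all 4 groups received a TWIST1 plasmid. Plasmid DNA and binding at the gene cannot be told apart in these lists.

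Peaks of each pcDNA3.1 list were covered most by the pCAG list of cells with the same factors. Of the 12505 pcDNA3.1 peaks with ALX4, 74.7% were overlapped by the pCAG list with ALX4, 54.7% by the pCAG list without it and 34.7% by the pcDNA3.1 list without it. Of the 15395 pcDNA3.1 peaks without ALX4, 76.6% were overlapped by the pCAG list without ALX4, 58.3% by the pCAG list with it and 28.1% by the pcDNA3.1 list with it. The pCAG lists are several times longer, which raises the share of any list that they cover. Read the other way, 14.3% of the 64536 pCAG peaks with ALX4 were overlapped by the pcDNA3.1 list with ALX4 and 31.9% by the pCAG list without it.

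Most regions that changed in both systems changed the same way. Of the 7321 regions gained or lost in each system, 6179 went in the same direction (84.4%) and 1142 went in opposite directions, 635 of them gained with pCAG and lost with pcDNA3.1 and 507 the reverse. Of the 5774 regions gained with pcDNA3.1 among those peaked in both systems, 49.4% were gained with pCAG (95% Wilson interval 48.1 to 50.6, covering counting error only), 41.9% were kept and 8.78% were lost. Of the 8319 lost with pcDNA3.1, 40.02% were lost with pCAG (39.0 to 41.1), 52.4% were kept and 7.63% were gained. Seen from the pCAG system, 73.7% of its 3867 gained regions were gained with pcDNA3.1 and 16.4% were lost there. Of its 4194 lost regions, 79.4% were lost with pcDNA3.1 and 12.1% were gained. These shares stand beside the 21.0% and 22.8% (pCAG) and the 31.3% and 45.1% (pcDNA3.1) for all regions peaked in both systems. With each list held to its 12000 strongest peaks, 74.7% of the regions lost with pcDNA3.1 were lost with pCAG. With peaks required to share 50% of each other's length, 2111 regions went in opposite directions. At −log10 q of at least 5 only 525 did, and 1717 regions were lost in both.

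**Figure D1:**
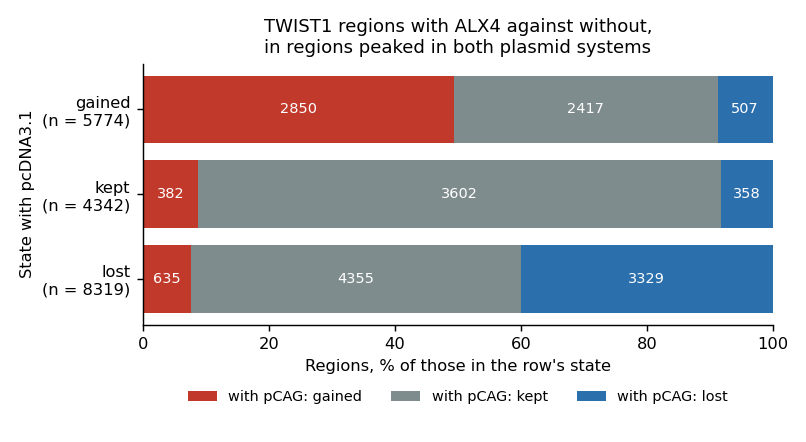
State of a region in the pCAG system (stacked shares, in percent) for regions gained, kept or lost in the pcDNA3.1 system, among the 18435 regions peaked in both systems. Regions gained with pcDNA3.1 were gained with pCAG in 49.4% of cases and lost in 8.78%, whereas regions lost with pcDNA3.1 were lost in 40.02% and gained in 7.63%.

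Base composition moved with the state of a region. The median GC content of the window of 100 bp to either side of the summit was 42.3% for regions gained in both systems, 47.8% for those kept in both and 55.2% for those lost in both. Flanks 1000 bp away had medians of 41.3, 45.5 and 49.0%, so the difference was larger at the summit than beside it. At a GC content of 40 to 50%, 51.8% of the regions gained with pcDNA3.1 were gained with pCAG and 7.09% were lost, while 35.8% of those lost with pcDNA3.1 were lost with pCAG and 10.4% were gained. At 50 to 60% the same 4 shares were 34.6, 18.2, 48.1 and 4.55%. The order turned at the ends of the range. Below 40% GC, more of the regions lost with pcDNA3.1 were gained with pCAG (18.0%) than lost (9.69%). At 60% GC and above, more of the regions gained with pcDNA3.1 were lost with pCAG (33.0%) than gained (11.7%). The part of base composition in the agreement of the systems was not tested beyond these bands.

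Regions gained in both systems lay away from promoters. Of them 8.84% were within 1 kb of a transcription start site, against 26.4% of those lost in both, 30.9% of those kept in both and 13.2% of all regions. Low shares were not particular to them. Regions gained in 1 system and not peaked in the other stood at 5.36% (pCAG) and 9.08% (pcDNA3.1). Regions gained in 1 system and kept in the other stood at 19.6% (gained with pCAG) and 22.4% (gained with pcDNA3.1). Introns held 52.4% of the regions gained in both and 34.7% of those lost in both, and intergenic sequence held 36.0 and 34.6%. The median distance to the nearest start site was 28339 bp for regions gained in both, 10666 bp for those lost in both and 8357 bp for those kept in both.

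Peaks gained or lost in both systems were weaker than those kept in both. The median −log10 q of regions gained in both was 9.26 in the pCAG list with ALX4 and 6.41 in the pcDNA3.1 list with ALX4. Regions lost in both had medians of 6.00 and 3.95 in the lists without ALX4. Regions kept in both reached 11.0 and 12.8 in the pCAG lists and 7.33 and 7.73 in the pcDNA3.1 lists, each without and then with ALX4. Regions that changed in opposite directions were the weakest of those peaked in both systems, with medians of 4.50 (pCAG) and 3.48 (pcDNA3.1) where gained with pCAG, and 4.40 and 3.03 where lost with pCAG. Regions kept with pCAG but gained with pcDNA3.1 had a median of 5.43 in the pCAG list without ALX4 and 10.2 in the list with it. Those kept with pCAG but lost with pcDNA3.1 had 8.45 without and 5.72 with ALX4. The lists differ in length, so these values rank peaks within a list and do not show a change in binding.

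The composite motif was counted within 100 bp of each summit on both strands, with the flanks as background. It was present in 59 of 2850 regions gained in both systems (2.07%, interval 1.61 to 2.66, flanks 0.0877%). It was present in 33 regions kept in both (0.916%, flanks 0.0139%) and in 1 of 3329 regions lost in both (0.03004%, equal to the flanks). The difference between gained and lost was 2.04 percentage points, with an interval of 1.56 to 2.63. Among the regions of opposite direction it was found in 3 of 507 lost with pCAG and gained with pcDNA3.1, and in 0 of 635 gained with pCAG and lost with pcDNA3.1, which allows a share of up to 0.472% (3 counts of the total). Regions gained with pCAG and kept with pcDNA3.1 carried it in 15 of 382, a larger share than in regions gained in both. Regions kept with pCAG and gained with pcDNA3.1 carried it in 26 of 2417. Regions gained with pcDNA3.1 and not peaked with pCAG carried it in 1.83% of cases. Those gained with pCAG and not peaked with pcDNA3.1 did in 0.520%. Over all regions the share was 0.450%. The share in regions gained in both was 1.71% below 40% GC, 2.10% at 40 to 50% and 3.39% at 50 to 60%, with 0 of 42 at 60% and above. In regions lost in both, the single match lay in the band of 50 to 60% (0.0837% of 1195). There were 0 of 935 at 40 to 50% (Wilson upper limit 0.409%) and 0 of 78 below 40%, where the upper limit of 4.69% lies above the gained share.

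**Figure D2:**
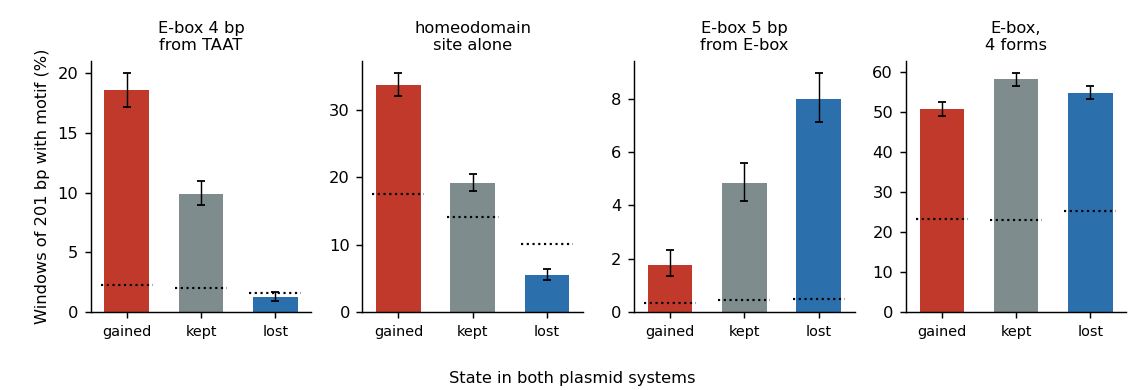
Share of regions (percent) with each motif within 100 bp of the summit, for regions gained, kept or lost in both systems, with 95% Wilson intervals and the flank share as a dotted line. The composite and the E-box pair are drawn in their looser forms (any CANNTG as a box), which were chosen after the data were seen. The looser composite runs from 18.5% in regions gained in both to 1.29% in those lost in both. The looser E-box pair runs the other way, from 1.79 to 7.99%.

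Most composites lay close to the summit. In the 59 regions gained in both, the median distance of the motif from the summit was 39 bp, and 42 lay within 50 bp. The E-box was CAGCTG in 26, CATCTG in 20, CAGATG in 8 and CATATG in 5. Read from the E-box, the homeodomain site was CAATTA in 29, TAATTA in 20 and TAATTG in 10. A composite also went with a gain within each system taken alone. Of 397 regions with the composite and a peak in the pCAG system, 71.0% were gained and 4.79% lost. Of 41134 with an E-box but no composite, 39.8% were gained and 36.6% lost, and of 51947 with neither, 52.4% were gained and 28.0% lost. In the pcDNA3.1 system 66.3% of 190 composite regions were gained and 7.37% lost, against 31.5 and 46.3% of 11527 with an E-box only and 36.3 and 47.3% of 11295 with neither.

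The looser form of the composite was chosen after the data were seen. It was present in 528 regions gained in both systems (18.5%, interval 17.1 to 20.0, flanks 2.26%), in 9.91% of those kept in both (flanks 2.04%) and in 1.29% of those lost in both (0.960 to 1.74, flanks 1.59%). The regions of opposite direction lay between these, with 5.20% where gained with pCAG and 4.73% where lost with pCAG. The spacing of 4 bp stood out from its neighbours. At 3 bp the same pair was found in 2.77% of the regions gained in both, and at 5 bp in 3.19%.

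**Figure D3:**
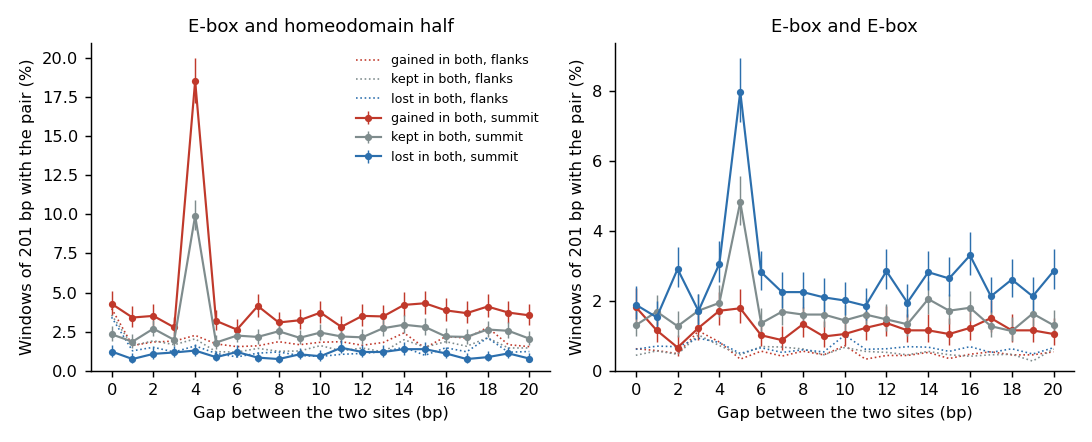
Share of regions (percent) in which the looser pair, CANNTG and 6 bases that hold TAAT or ATTA, and a pair of CANNTG boxes lie at each gap of 0 to 20 bp, at the summit (solid, with 95% Wilson intervals) and in the flanks (dotted). Regions gained in both stand at 18.5% for the composite at 4 bp, and regions lost in both at 7.99% for the E-box pair at 5 bp.

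Regions lost in both systems carried paired E-boxes more often than those gained in both. A pair of E-boxes of the 4 strict forms 5 bp apart was found in 2.10% of regions lost in both, 1.305% of those kept in both and 0.211% of those gained in both. With any CANNTG as a box, the shares were 7.99% (266 regions, flanks 0.496%), 4.83% and 1.79%. In regions lost in both, the pair was found at 4 bp in 3.06% and at 6 bp in 2.82%. Gained minus lost was -1.89 percentage points for the strict pair (interval -2.45 to -1.39) and -6.20 for the looser pair (-7.26 to -5.17).

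Homeodomain sites differed more between the groups than single E-boxes did. A strict E-box was present in 50.8% of regions gained in both, 58.2% of those kept in both and 54.9% of those lost in both. Gained minus lost was -4.08 points for the E-box, -12.5 at −log10 q of at least 5 and -11.6 with the 12000 strongest peaks of each list. A homeodomain site (TAATTA or TAATTG) was present in 33.7, 19.2 and 5.56%, with flanks at 17.5, 14.1 and 10.1%, so the lost group lay below its own flanks. Homeodomain pairs, TAAT and ATTA 3 bp apart and counted with or without an E-box nearby, were found in 1.75, 0.416 and 0.0901%. The E-box CAGGTG, or CACCTG on the other strand, was found in 19.1, 20.8 and 29.9%. The median GC content at the summit was 42.3, 47.8 and 55.2% in these groups. The part of base composition in these shares, and in those of the looser composite and the E-box pairs, was not tested.

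Other libraries, in which an antibody to V5 (Abcam ab15828) precipitated wild-type TWIST1 tagged with V5 and carried on pcDNA3.1, were not used to name the regions. There were 3 lists without ALX4 (22465 to 56014 peaks) and 3 with it (29430 to 65005 peaks). Regions gained in both systems were found in 78.1, 83.0 and 92.3% of cases in the lists with ALX4 (mean 84.5% ± 7.21, SD, n = 3) and in 16.9, 9.54 and 23.9% in those without (16.8% ± 7.18). Every list with ALX4 lay above every list without, a difference of 67.7 percentage points. The two-sided exact permutation p was 0.10, the smallest that 3 against 3 allows (Benjamini-Hochberg over 3 groups of regions 0.20, raw p 0.10 to 0.333 over the settings tried), so the design cannot pass 0.05.

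Regions lost in both systems were found in 21.8, 33.9 and 56.1% of cases with ALX4 (37.3% ± 17.4, SD, n = 3) and in 65.6, 55.0 and 87.0% without (69.2% ± 16.3). The groups overlapped, the difference was -31.95 percentage points and the exact permutation p was 0.20 (adjusted 0.20, raw p 0.10 to 0.667 over the settings). Regions kept in both were found in 91.1, 96.2 and 99.4% with ALX4 (95.6% ± 4.22) and in 89.4, 85.1 and 95.1% without (89.8% ± 5.03), with overlap and an exact permutation p of 0.20 (adjusted 0.20, raw p 0.10 to 0.667). Within the lists with ALX4 and within those without, the longer list found more of each of these 3 groups of regions. Within 40 to 50% GC, regions gained in both were found in 79.9, 86.3 and 94.1% with ALX4 and in 16.4, 9.73 and 23.9% without. The labels do not say whether the V5 and TWIST1 libraries came from the same transfections, nor whether replicates were separate cultures, so the p-values measure the spread between these lists, which may be technical.

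**Figure D4:**
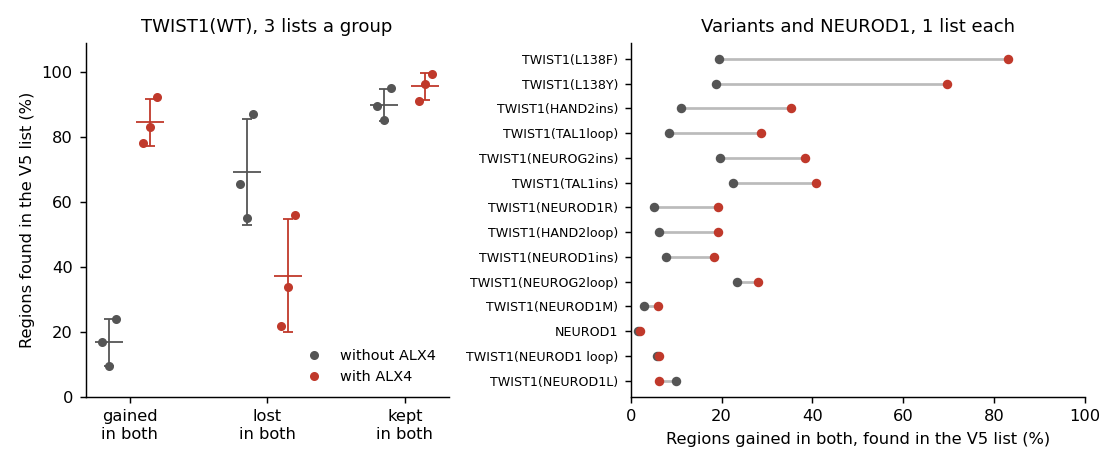
Share of regions (percent) found in each of the 3 V5 lists of wild-type TWIST1 without and the 3 with ALX4, for regions gained, kept or lost in both systems. Dots are lists and bars give the mean ± SD. For regions gained in both, the lists with ALX4 lie between 78.1 and 92.3% and those without between 9.54 and 23.9%.

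The regions of opposite direction did not part in the V5 lists. Those gained with pCAG and lost with pcDNA3.1 were found in 41.9, 54.2 and 79.5% with ALX4 and in 45.8, 31.97 and 65.8% without. Those lost with pCAG and gained with pcDNA3.1 were found in 42.6, 55.8 and 78.1% with ALX4 and in 47.5, 36.1 and 73.4% without. Regions peaked in the pCAG system only and gained there were found in 13.3, 18.8 and 28.7% with ALX4 and in 3.95, 2.21 and 7.46% without. Regions peaked in the pcDNA3.1 system only and gained there were found in 37.3, 40.2 and 57.4% with ALX4 and in 12.01, 4.76 and 18.4% without. In both one-system sets each list with ALX4 lay above each list without. These sets were not tested.

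V5 lists of 13 TWIST1 variants, each with 1 library without and 1 with ALX4, gave a second view. The labels name these variants after a residue change such as L138F or after another bHLH factor such as HAND2. The share of regions gained in both that the lists held was 30.7% ± 23.6 with ALX4 and 12.4% ± 7.28 without (SD, n = 13). It was higher with ALX4 in 12 of 13 variants, by a mean of 18.3 percentage points (range -3.65 to 63.5, exact sign-flip permutation p = 0.00122, adjusted over 3 groups of regions 0.00366, and p = 0.000488 at −log10 q of at least 5). Regions lost in both differed by -4.24 points, with 6 variants higher and 7 lower (exact permutation p = 0.497, adjusted 0.497, p = 0.839 at the stricter q). Regions kept in both differed by 5.71 points, higher in 11 and lower in 2 (exact permutation p = 0.0771, adjusted 0.116, p = 0.0215 at the stricter q). The units of these tests are different proteins with 1 pair of lists each, not replicates of a condition. List length varied too. With ALX4 the TAL1loop list was longer (41596 against 21203 peaks, lost regions 31.2 points higher) and the L138Y list shorter (36276 against 46568). The smallest rise for gained regions was 0.281 points (NEUROD1 loop).

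The variants spread widely. L138F held 83.1% of the regions gained in both with ALX4 and 19.5% without, a share with ALX4 within the 78.1 to 92.3% of the wild-type V5 lists. L138Y held 69.6 and 18.7%. Both also held fewer regions lost in both with ALX4 (44.5 and 42.0%) than without (80.5 and 77.4%). TAL1ins held 40.7% of the gained regions with ALX4 and 22.5% without, NEUROG2ins 38.4 and 19.6%, and HAND2ins 35.4 and 11.0%. NEUROD1L was the variant that went the other way, at 6.28% with ALX4 and 9.93% without. Its list with ALX4 was shorter (8559 peaks against 26878), and its shares of regions kept and lost in both differed by -18.7 and -39.6 points. NEUROD1 itself, a neuronal bHLH factor put in place of TWIST1, held 2.11% with and 1.68% without ALX4. Its lists were short, at 3925 peaks with ALX4 and 5097 without, and held 21.1 and 26.2% of the regions kept in both. In cells given the plasmid pUC19, the V5 list of 463 peaks held 5 of the 2850 regions (0.175%).

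Cells that express TWIST1 themselves were compared next. Human cranial neural crest cells (hCNCCs) had been differentiated from the embryonic stem cell line H9, and 42318 TWIST1 peaks were shared by their 2 untreated wild-type replicates. Of the regions gained in both HEK293 systems, 46.3% (1319) overlapped these peaks, against 54.7% of those kept in both, 16.6% of those lost in both and 15.3% of all regions. Regions gained with pCAG and lost with pcDNA3.1 overlapped them in 20.2% of cases and the reverse in 25.05%. Of the 59 gained regions with the composite, 49 were hCNCC peaks (83.1%, interval 71.5 to 90.5), against 45.5% of gained regions without it. In RS4;11, a human leukaemia line, the order of gained and lost was the opposite. Its TWIST1 list held 15.7% of the regions gained in both, 49.2% of those lost in both and 22.0% of all regions. Of the kept regions without the composite it held 56.0%.

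The acetylation of histone H3 at lysine 27 (H3K27ac), a mark of active regulatory elements, was counted by the authors over 213151 elements in hCNCCs of the TWIST1FV line. This line is 1 edited clone (c64) in which 500 nM dTAGV-1 removes the tagged TWIST1. Over all 123361 elements tested with edgeR, 4.28% fell and 1.01% rose at 3 h against 0 h (FDR 0.05, 2 replicates per time), and the median log2 fold change was 0.02. Of 1756 tested elements (of 2110) at regions gained in both HEK293 systems, 323 fell (18.4%) and 2 rose, with a median log2 fold change of -0.49. At regions lost in both, 31 of 1996 fell (1.55%) and 23 rose, with a median of 0.16. At regions kept in both, 240 of 3630 fell (6.61%) and 24 rose. Leaving out replicate 1 at 0 h lowered the 323 to 183 (9.78%), the lost count to 13 (0.589%), the kept count to 106 (2.78%) and the share over all elements to 1.65%. The lone 0 h sample was then assumed to vary like the others. Without replicate 2 at 3 h the lost count was 17 (0.774%).

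Gained regions with the looser composite held a larger share of falling elements than those without it. The comparison was not made within hCNCC TWIST1 peaks, where 25.9% of elements at regions gained in both fell, against 0.765% outside them. With the looser form 105 of 374 tested elements fell (28.1%, median log2 fold change -0.85), and without it 218 of 1382 (15.8%, median -0.36). Without replicate 1 at 0 h these were 64 (16.4%) and 119 (8.03%). For the strict composite the order depended on the libraries included. Of its 47 tested elements 10 fell (21.3%) and none rose, with a median of -0.92, close to the 18.4% of all elements at regions gained in both. Leaving out replicate 1 at 0 h left 4 of 48 (8.33%, against 9.78%). Leaving out replicate 2 at 0 h left 6 of 49 (12.2%, against 14.1%), and leaving out replicate 2 at 3 h left 4 of 49 (8.16%, against 12.9%). At regions of opposite direction 2.99% fell where gained with pCAG and 3.93% where lost with pCAG. Gains in 1 system only stood at 7.72% (pCAG) and 15.3% (pcDNA3.1). Without replicate 1 at 0 h these 4 shares were 1.62, 2.03, 3.46 and 6.39%.

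The fall was found where hCNCCs had a TWIST1 peak. Of the 37359 tested elements in hCNCC TWIST1 peaks 13.4% fell, with a median log2 fold change of -0.51. Among those at regions gained in both, 319 of 1233 fell (25.9%, median -0.76), at regions kept in both 10.2% and at regions lost in both 4.77%. Without replicate 1 at 0 h the shares in hCNCC peaks were 6.17% for all elements, 14.1% (180 of 1275) at regions gained in both, 4.47% at those kept and 1.99% at those lost. Outside hCNCC peaks, 4 of 523 elements at regions gained in both fell (0.765%). In wild-type hCNCCs given the same compound for 3 h, edgeR called 0 of 120860 elements (0% fell). At unadjusted p under 0.05, 1938 fell and 2200 rose there, of which 20 and 23 lay among 1853 elements at regions gained in both. Whether the lines differ at these elements was not tested.

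**Figure D5:**
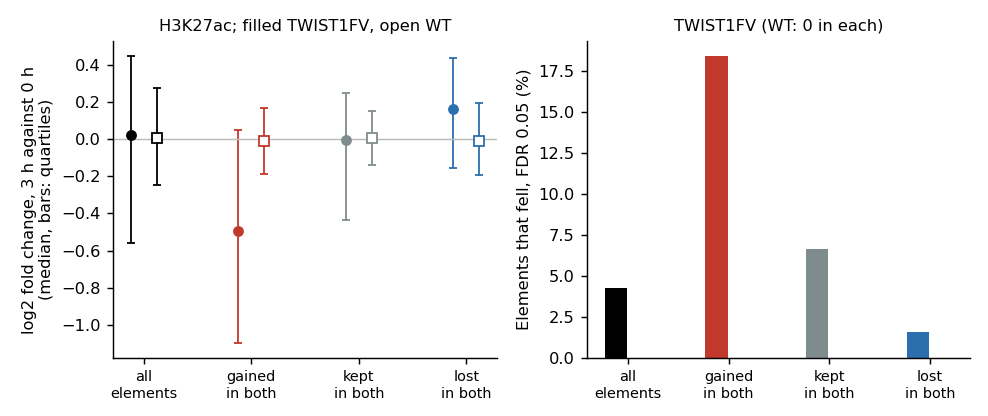
Left, median log2 fold change in H3K27ac at 3 h against 0 h with quartiles, by group of regions, in the TWIST1FV line (filled) and wild type (open). Right, the share of tested elements (percent) that fell at FDR 0.05 by edgeR. Elements at regions gained in both stand at -0.49 and 18.4% in TWIST1FV, and those at regions lost in both at 0.16 and 1.55%.

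The strongest regions gained in both had nearest genes of varied function. A region in an intron of SDCCAG8, a centrosome protein gene (chr1:243331708-243333119), had −log10 q of 94.9 with pCAG and 72.7 with pcDNA3.1. The region near LAMA4, a laminin chain (chr6:112285752-112286618), had 76.9 and 60.5. An intergenic region (chr9:80797803-80798966) had 90.9 and 46.5, and its nearest start site, that of the corepressor gene TLE1, lay 815124 bp away. A region at the promoter of FBLN5, an elastic fibre protein (chr14:91946853-91947829, 68 bp from the start site), had 64.3 and 51.9. All 6 strongest regions, which also include BCAR3 and ZC3H11B, were hCNCC TWIST1 peaks.

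The BCAR3 intron shown above (chr1:93575948-93577051), in a gene for a signalling adaptor, had −log10 q of 56.4 with pCAG and 62.0 with pcDNA3.1. It overlapped 2 H3K27ac elements. The one that holds the sequence shown (chr1:93576326-93577588) had 134 and 95.4 CPM (counts scaled to the library total) in TWIST1FV at 0 h and 56.8 and 41.6 at 3 h. Both 3 h libraries lay below both 0 h libraries, and the log2 fold change was -1.24 ± 0.23 (SE, edgeR adjusted p = 0.00356). In wild type the 0 h libraries had 100.8 and 106 and the 3 h libraries 101.1 and 103. Its neighbour (chr1:93575411-93576286) went from 150 and 136 to 68.8 and 59.9 CPM (-1.17 ± 0.17, edgeR adjusted p = 0.000694). The ZC3H11B region (chr1:219587773-219588880) had an element that went from 13.8 and 14.7 to 4.64 and 4.11 CPM (-1.72 ± 0.36, edgeR adjusted p = 0.00847). The other 4 of the 6 strongest regions showed no called fall. The TLE1 element stood at 0.09 ± 0.14 and the FBLN5 element at -1.06 ± 0.56, neither past the threshold (edgeR adjusted p = 0.809 and 0.349). The elements at SDCCAG8 and LAMA4 were too low in counts to be tested.

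Of the 6 strongest composite regions, 5 were hCNCC peaks and the intron of BICD1, a dynein adaptor gene (chr12:32181529-32182390), was not. The region near CAT, which encodes catalase (chr11:34426479-34427425, intergenic, 11957 bp from the start site), had −log10 q of 30.8 with pCAG and 51.9 with pcDNA3.1. Its element fell from 21.9 and 25.7 to 7.096 and 9.99 CPM (-1.50 ± 0.29, edgeR adjusted p = 0.00463), against 24.8 and 29.4 and then 22.2 and 29.4 in wild type. The element in an intron of CAD, a gene of pyrimidine synthesis (chr2:27214782-27215472), had 11.2 and 9.12 before and 4.09 and 5.75 after, which did not pass (-1.07 ± 0.35, edgeR adjusted p = 0.0952).

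The SOX9 region (chr17:72376258-72377177) is intergenic, 255693 bp from the start site of this regulator of cartilage and crest, and had −log10 q of 33.8 with pCAG and 45.8 with pcDNA3.1. Its element had 38.0 and 29.5 CPM at 0 h and 35.6 and 22.4 at 3 h, with overlapping groups (-0.23 ± 0.26, edgeR adjusted p = 0.716). The introns of ATP9B (chr18:79241333-79242777) and MARCHF8 (chr10:45505169-45506192), a membrane ubiquitin ligase, had elements at -0.47 ± 0.45 and -1.42 ± 0.50, neither past the threshold (edgeR adjusted p = 0.656 and 0.1201).

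The first regions by rank that were lost in both lay near PGS1, a gene of mitochondrial lipid synthesis (chr17:78390148-78390909, −log10 q 43.9 with pCAG and 33.4 with pcDNA3.1), and PSG4, a placental glycoprotein gene (chr19:43207093-43208315, 34.9 and 26.9). The others were near KRTAP19-8, a keratin-associated protein gene (chr21:30984755-30985459, 35.9 and 23.6), ADAM12, a metalloprotease gene (chr10:126242677-126243491, 37.8 and 22.1), and KLHL29 (chr2:23241002-23241650, 30.7 and 28.0). The start sites of KRTAP19-8, ADAM12 and KLHL29 lay 53367, 145394 and 143900 bp from their regions. None of these 5 regions was an hCNCC TWIST1 peak.

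The first regions by rank that were gained with pCAG and lost with pcDNA3.1 lay near RPS6KC1, CHN1 and TUBG2, and those of the reverse kind near SLC6A6, NDUFB7 and BARX2. The CHN1 region held an H3K27ac element that fell from 15.1 and 12.5 to 3.55 and 4.11 CPM (-1.87 ± 0.35, edgeR adjusted p = 0.00364), and a second CHN1 element fell as well (-0.88 ± 0.24, edgeR adjusted p = 0.0452). The elements at TUBG2 (0.26 ± 0.27) and NDUFB7 (-0.37 ± 0.48) did not pass (edgeR adjusted p = 0.678 and 0.761), and the element at BARX2 was too low in counts to be tested. The strongest regions kept in both lay near SUB1, GMPR and WDR62.

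Genes of neural crest and mesenchyme were looked up within 100 kb. Of all 19676 protein-coding genes, 21.6% had a region gained in both systems and 35.4% a region lost in both. Of 17 homeodomain factors, 6 had a gained region, MSX2, PRRX1, PAX3 and PITX1 among them, and 7 a lost one. The gained region at PAX3, a factor of the early crest, lay 25985 bp from its start site. Of 13 crest and mesenchyme factors, 6 had a gained region (SOX9 and NR2F1 with 3 each, TFAP2A, SNAI1, FOXD3 and NR2F2) and 5 a lost one. The nearest lay 1554 bp from NR2F2 and 3890 bp from FOXD3, an early crest regulator, while SOX10 and FOXC1 had 3 lost and no gained regions each.

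Among 11 bHLH factors and their inhibitors, 2 had a gained region and 5 a lost one. TCF4, which encodes an E protein partner of TWIST1, had 4 gained regions, 1 of them with the composite, the nearest 2048 bp from its start site, and no lost region. HAND1 had 1 of each kind. ID1 and ID3, which encode inhibitors that bind E proteins, had 4 lost regions each and no gained one. Of 10 adhesion genes only CDH2, which encodes N-cadherin, had gained regions (2, the nearest at 450 bp), and 4 had lost ones. Of 15 signalling genes 6 had a gained region and 7 a lost one. Gained regions lay 13576 bp from PDGFRA, a growth factor receptor of crest mesenchyme, 191 bp from PTCH1, the hedgehog receptor, and 146 bp from GLI3, a hedgehog effector. With 10 to 17 genes a list, these counts are descriptions beside the 21.6% and 35.4%.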

How the data were processed

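TWIST1-antibody ChIP-seq of 4 HEK293 groups was analysed from the deposited peak lists, whose values are the authors' −log10 p and q and fold enrichment. Bowtie2 2.4.1, SAMtools 1.10, MACS2 2.2.7.1, deepTools 3.5.0 and the builds hg38 and mm39 are named in the submitters' processing notes, and the control used in peak calling is not given in the sources used here. Input libraries were not analysed here. Peaks with the same interval and several summits were counted once, at the highest −log10 p. Regions were merged from peaks sharing at least 1 bp. Motifs were counted in the 100 bp to either side of the summit in the pCAG list (else pcDNA3.1), with ALX4 where listed, and genes come from GENCODE 44. The depth of the lists is unknown, and intervals are Wilson at 95%.

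The authors deposited H3K27ac counts per element, raw per the file headers and values, with 7080398 to 9173063 per library. Among counts from 20 up, even numbers made up 76.7% or more in each library, a pattern that counting both mates of a pair gives. Mouse spike-in reads were not used here. TWIST1FV and wild type were fitted apart with edgeR 4.0.16 (TMM, filterByExpr, quasi-likelihood, 3 times) in R 4.3.3, with Benjamini-Hochberg FDR 0.05 over all elements. The SE is the log2 fold change over the square root of F. DESeq2 1.42.0, other filters, region rules and windows were alternatives. Exact permutation tests used scipy 1.17.1. The scripts were tested on simulated data.

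Named regions are the first by the sum of within-list ranks (6 gained in both, 6 of these with the composite, 5 lost, 3 of each opposite kind, 3 kept), outside chromosome 8 where sequence is shown, with the nearest gene, and listed genes within 100 kb. The members, lists and rules were chosen with earlier results of these data known. Some listed genes are not reported here by name.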

Additional observations from a re-analysis of the deposited data

Results flagged for a closer look

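The lists changed in opposite directions when ALX4 was added: the pCAG list was longer by 14340 peaks and the pcDNA3.1 list changed by -2890. With 1 library a group, this difference between the systems was not tested.

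A total of 635 regions were gained with pCAG and lost with pcDNA3.1, and 507 were lost with pCAG and gained with pcDNA3.1. The systems moved these regions in opposite directions, and the difference was not tested.

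The V5 lists of the variant NEUROD1L held a smaller share of the regions gained in both systems with ALX4 than without, by -3.65 percentage points, while the other 12 variants moved up. Its list with ALX4 held 8559 peaks against 26878 without, and its shares of regions kept and lost in both differed by -18.7 and -39.6 points. The difference between this variant and the others was not tested.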

How the results depend on the processing

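With regions chained from summits within 200 bp, at −log10 q of at least 5, with the 12000 strongest peaks of each list, and with 50% reciprocal overlap, 56.6, 62.4, 69.7 and 54.8% of the regions gained with pcDNA3.1 were gained with pCAG, and 49.6, 45.5, 74.7 and 50.7% of those lost were lost. The count of regions lost in both was 1717 at the stricter q, and regions of opposite direction numbered 525 at the stricter q, 713 with the 12000 strongest and 2111 with reciprocal overlap. The composite difference of gained over lost was 2.87 points at the stricter q, 1.16 within 50 bp of the summit and 10.2 with any TAAT as the homeodomain site, and 17.2 in the looser form. Motifs, V5 shares, base composition, promoters, hCNCC peaks and H3K27ac were not recomputed with reciprocal overlap, and the last 4 under no other region rule. The E-box pair difference was -2.90 at the stricter q, -2.91 with the 12000 strongest and -1.12 within 50 bp of the summit, the looser pair -9.39, -9.98 and -4.02, and the homeodomain site 17.9 within 50 bp. The order of the strict composite against all regions gained in both, in shares of falling H3K27ac elements, changed with some libraries left out. No other result changed direction in the settings run for it.

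Leaving out 1 V5 replicate at a time gave differences of 64.8 to 70.9 points for regions gained in both, -37.4 to -26.0 for lost and 3.01 to 7.75 for kept. A replicate block could be set only by number. The V5 lists' deviations correlated at 0.0638, 0.0452 and 0.0911 for the same number, each the highest for its sample. That is a hint from the data and not the design. The paired exact permutation p was 0.25 for each group of regions, the smallest that 3 pairs allow. At the stricter q the 13 variants gave 10.6 points for regions kept in both (exact permutation p = 0.0215, p 0.0215 to 0.0771 over the settings).

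The share of regions gained in both at hCNCC peaks was 48.5 and 52.9% with each replicate alone and 50.1% with a separate hCNCC list. The count of 323 falling H3K27ac elements was 283 with DESeq2, 288 by library size, 268 without a filter, 472 with a replicate block (same-numbered deviations correlated at 0.105 over 2 pairs, so the samples share only a number), 183 to 298 leaving out 1 library and 4 outside hCNCC peaks. Scaling by library size moved the median log2 fold change of all elements to 0.11. The looser motif, the summit window for V5, the single hCNCC replicates, the other motifs and the split by hCNCC peaks were chosen after seeing the data. Peak lists without read counts limit what an absent peak can show.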

Other observations

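Other homeodomain factors were put beside pcDNA3.1_V5-TWIST1 in HEK293 cells and precipitated with the same TWIST1 antibody, 1 library each. PRRX1 (isoforms a and b) is a mesenchymal homeodomain factor, PHOX2A acts in autonomic neurons and MSX1 in the facial and limb mesenchyme. The list with PRRX1b (17317 peaks) held 39.2% of the regions gained with ALX4 in both systems, 73.7% of those kept in both and 14.6% of those lost in both. The list with PRRX1a (12288 peaks) held 26.4, 63.8 and 11.1%. The list with PHOX2A (7023 peaks) held 14.6, 55.9 and 9.88%. The list with MSX1 (2498 peaks) held 4.32, 23.0 and 2.43%. Over all regions these lists held 13.4% (PRRX1b), 9.86% (PRRX1a), 6.44% (PHOX2A) and 2.03% (MSX1). The list of TWIST1 alone gives no baseline, since regions gained in both are absent from it by definition. The lists differ in length.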
